A study of Mus musculus with 8 samples.

Results

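The genes described here encode the 3 large families of conjugating enzymes of the liver, the UDP-glucuronosyltransferases (UGT), the cytosolic sulfotransferases (SULT) and the soluble glutathione S-transferases (GST). They were taken by name from the deposited expression table: every row whose gene name starts with Ugt plus a digit, Sult plus a digit, or Gst plus a letter and a digit, with the highest row kept per name and rows of identical values counted once. This gave 60 names, 21 UGT, 18 SULT and 21 GST. Of these, 5 were listed at 0 in all 8 libraries (Gstt4, Sult1c1, Sult2a3, Sult2a5 and Sult2a6), and the other 55 names fell on 40 distinct rows (10 UGT, 14 SULT and 16 GST) among 17294 features with a value above 0. A filter of at least 1 FPKM (fragments mapped to a gene, scaled to transcript length and to library size) in at least 2 of the 8 libraries left 30 of the 40 members for testing, 9 UGT, 7 SULT and 14 GST, of 11463 features tested. The 10 left out, Ugt8a, Sult2a1, Sult2a2, Sult2a4, Sult2b1, Sult3a1, Sult4a1, Sult6b1, Gsta1 and Gsto2, stayed under 1 FPKM.

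RNA was sequenced from livers of male C57Bl/6J mice in 4 groups of 2 biological replicates. The groups were ApoE-Cyp7a1 transgenic mice given lipopolysaccharide (LPS, a bacterial endotoxin that drives inflammation), untreated transgenic mice, wild-type mice given LPS, and untreated wild-type mice. LPS was injected daily at 1.5 mg/kg for 7 days. The transgene, described by the submitters as liver specific, adds expression of Cyp7a1, which catalyses the slow first step from cholesterol to bile acids. The animals' age was not given in the sources used here, nor was the control region driving the transgene beyond its ApoE name. The study thus asked how repeated endotoxin changes the liver transcriptome, and whether a liver with more Cyp7a1 responds differently.

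Conjugation is the second phase of detoxification. UGT enzymes, bound to the endoplasmic reticulum, move glucuronic acid from UDP-glucuronic acid onto bilirubin, steroids, bile acids and drugs. SULT enzymes move a sulfonate group from PAPS (3'-phosphoadenosine 5'-phosphosulfate) onto phenols, catecholamines and steroids, and GST enzymes join glutathione to electrophiles. In hepatocytes many of these genes depend on liver transcription factors such as HNF1 and HNF4 alpha and on the nuclear receptors PXR, CAR and PPAR alpha, while several GST genes are targets of NRF2, the regulator of the antioxidant response.

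Several members could not be told apart, because the deposited table gives them identical values. The largest such row held 8 names of the Ugt1a locus (Ugt1a1, Ugt1a2, Ugt1a5, Ugt1a6a, Ugt1a6b, Ugt1a7c, Ugt1a9 and Ugt1a10), which lie at chr1:88055388-88220002 (GRCm38) and share 3 exons in the GENCODE vM21 annotation. It is called the Ugt1a row below. The other shared rows were Ugt2a1 with Ugt2a2 and Ugt2a3 (the Ugt2a row), Ugt2b36 with Ugt2b5, Ugt3a1 with Ugt3a2 (the Ugt3a row), Gstm1 with Gstm3, Gstm4 and Gstm6 (the Gstm1 row), and Gstm2 with Gstm7. All 60 names had a position in the annotation, on 12 chromosomes. The Ugt2 genes sit next to part of the SULT family: 13 names, 10 UGT and 3 SULT (Sult1b1, Sult1d1 and Sult1e1), filled 702 kb at chr5:86889767-87591594, from Ugt2b34 to Sult1e1.

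Promoter sequence, from 250 bases before to 50 bases after the start of the gene, was matched in RefSeq (GRCm38.p6) for 52 of the 60 names, which have 62 windows among 32851 in the genome. The windows printed here belong to the leading UGT rows, to the sulfotransferase pair Sult1e1 and Sult1d1 that lie side by side on chromosome 5, and to Gstp1, the GST with the largest change that passed the test. Each is given 5' to 3' on the gene's strand, and capitals mark the motif searched for on either strand: GTTAAT, the core recognised by HNF1, in Ugt1a1 and Sult1d1, AGGTCA, the hexamer of nuclear receptors, in Ugt2b36, Ugt2b5 and Sult1e1, and GCGTG, the core of the dioxin receptor AHR, in Gstp1.
Ugt1a1, chr1:88211709-88212008, plus strand: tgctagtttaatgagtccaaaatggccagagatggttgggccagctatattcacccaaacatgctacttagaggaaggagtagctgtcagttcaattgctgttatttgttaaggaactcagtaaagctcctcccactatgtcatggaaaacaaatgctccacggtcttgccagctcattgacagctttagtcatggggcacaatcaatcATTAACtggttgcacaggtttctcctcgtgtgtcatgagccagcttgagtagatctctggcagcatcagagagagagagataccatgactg
Ugt2b36, chr5:87092506-87092805, minus strand: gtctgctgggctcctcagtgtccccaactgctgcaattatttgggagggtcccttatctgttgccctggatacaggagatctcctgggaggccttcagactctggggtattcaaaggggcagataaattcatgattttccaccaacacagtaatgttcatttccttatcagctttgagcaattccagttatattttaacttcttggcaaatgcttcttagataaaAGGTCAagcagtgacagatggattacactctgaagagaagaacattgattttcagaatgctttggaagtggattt
Ugt2b5, chr5:87140291-87140590, minus strand: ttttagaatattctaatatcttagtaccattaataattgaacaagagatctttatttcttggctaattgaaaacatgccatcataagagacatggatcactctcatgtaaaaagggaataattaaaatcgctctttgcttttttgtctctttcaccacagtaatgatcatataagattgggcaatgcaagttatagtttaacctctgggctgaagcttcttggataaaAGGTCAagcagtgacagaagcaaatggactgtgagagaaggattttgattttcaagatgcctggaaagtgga
Sult1e1, chr5:87591562-87591861, minus strand: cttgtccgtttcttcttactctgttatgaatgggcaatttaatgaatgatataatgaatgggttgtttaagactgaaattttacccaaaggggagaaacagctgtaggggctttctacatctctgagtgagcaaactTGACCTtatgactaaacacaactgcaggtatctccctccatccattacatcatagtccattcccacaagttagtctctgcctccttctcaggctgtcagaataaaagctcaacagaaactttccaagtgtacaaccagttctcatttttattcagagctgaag
Sult1d1, chr5:87568957-87569256, minus strand: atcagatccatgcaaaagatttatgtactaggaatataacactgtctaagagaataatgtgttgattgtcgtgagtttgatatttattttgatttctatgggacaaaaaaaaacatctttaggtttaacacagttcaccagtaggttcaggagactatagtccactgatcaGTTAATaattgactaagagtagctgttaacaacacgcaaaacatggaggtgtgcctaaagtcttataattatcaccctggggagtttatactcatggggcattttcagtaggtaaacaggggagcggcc
Gstp1, chr19:4037863-4038162, minus strand: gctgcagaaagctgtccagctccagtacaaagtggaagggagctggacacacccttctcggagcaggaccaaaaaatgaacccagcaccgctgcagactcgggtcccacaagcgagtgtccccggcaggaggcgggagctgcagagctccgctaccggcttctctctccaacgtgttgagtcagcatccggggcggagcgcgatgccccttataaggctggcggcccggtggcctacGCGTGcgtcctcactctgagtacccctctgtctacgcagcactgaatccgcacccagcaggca
The nuclear receptor hexamer began 25 bases before the start in Ugt2b36 and 22 bases before it in Ugt2b5, and the aligned windows of this pair, which the table reports as 1 row, were 61.4% identical. The windows of Sult1e1 and Sult1d1 were 46.2% identical. Across the families, GTTAAT was found in 6 of 19 UGT windows, 6 of 16 SULT windows and 1 of 27 GST windows, against 7.1% of all windows. The UGT genes were Ugt1a1, Ugt1a6a, Ugt1a9 and Ugt1a10 of the Ugt1a row, Ugt2a3 and Ugt3a1. The SULT genes were Sult1a1, Sult1d1 and the related Sult2a3, Sult2a4, Sult2a5 and Sult2a6. Of these, Sult2a3, Sult2a5 and Sult2a6 were at 0 FPKM and Sult2a4 at most at 0.0672 FPKM. AGGTCA was in 7 UGT, 2 SULT and 2 GST windows, against 16.3% of all. The antioxidant response element core TGACNNNGC was in no UGT or SULT window and in 3 GST windows (Gsta3, Gstm5 and Gstm7), against 12.4% of all, and GCGTG was in 2 UGT, 4 SULT and 6 GST windows, against 32.4% of all. These matches describe the letters in the windows and not binding.

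Cyp7a1 was 64.7 to 78.5 FPKM in the 4 transgenic libraries and 19.9 to 49.1 FPKM in the 4 wild-type libraries. The FPKM of a library summed to 406668 to 457779 in transgenic LPS livers, 500765 to 525200 in untreated transgenic livers, 461001 to 469644 in wild-type LPS livers and 543010 to 580051 in untreated wild-type livers. The liver identity of the samples was clear from Apoa1 at 5071 to 14330 FPKM and Ttr at 1437 to 3713 FPKM, whereas Alb is listed at 0 in every library, which is not read as absence. Summed over 13 macrophage markers, FPKM was 1562 to 1578 in transgenic LPS, 167 to 259 in untreated transgenic, 1732 to 1763 in wild-type LPS and 131 to 265 in untreated wild-type livers, and 12 of the 13 passed as higher with LPS in either genotype. All 8 neutrophil markers also passed as higher in both genotypes (sums of 184 to 285 FPKM in transgenic LPS, 4.52 to 7.70 in untreated transgenic, 217 to 363 in wild-type LPS and 8.59 to 9.33 in untreated wild-type livers), as did 7 of 8 endothelial and 9 of 11 stellate cell markers. All 8 markers of exocrine pancreas passed as lower with LPS in transgenic livers and none passed in wild-type livers. Their sums were 24.7 to 135 FPKM in transgenic LPS, 982 to 4802 in untreated transgenic, 78.4 to 192 in wild-type LPS and 75.8 to 1304 in untreated wild-type livers. These sums thus also differed widely between replicates of the untreated groups, and none of the 8 markers passed the interaction. Hepatocyte markers summed to 27713 to 30560 FPKM in transgenic LPS, 25445 to 30084 in untreated transgenic, 29282 to 29444 in wild-type LPS and 33433 to 38595 in untreated wild-type livers. Of 16 tested, 1 passed as higher and 2 as lower with LPS in wild-type livers, and 2 as higher and 1 as lower in transgenic livers. Their median log2 change was -0.57 in wild-type and 0.05 in transgenic livers. The hepatocyte list holds the acute phase genes Fga, Fgb and Serpina1a, so its sum does not measure the share of hepatocytes. The immune and stromal markers therefore moved with the treatment that the conjugation genes are compared by, fewer hepatocytes and less RNA per hepatocyte cannot be told apart in whole liver, and the part of these cells in the results was not tested. The replicates of transgenic LPS livers stood apart from each other: replicate 1 was lower than replicate 2 in 26 of the 30 tested members, by a median of 0.57 on the log2 scale, and the number of calls without replicate 1, and each call that ended or moved by over 1.5 times without it, are given below.

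After 7 days of LPS, more conjugation genes fell than rose. In transgenic livers 14 of the 30 tested members fell and 1 rose, and in wild-type livers 9 fell and 1 rose (limma on log2(FPKM + 1), adjusted p under 0.05). Among all features, 10.5% fell and 16% rose in transgenic livers, and 5.41% fell and 16.2% rose in wild-type livers. The median log2 change of the tested members was -0.80 in transgenic and -0.79 in wild-type livers, while that of all features was -0.04 and -0.05. The member that rose was Sult1e1, the estrogen sulfotransferase, in both genotypes. By family, 7 of 9 UGT, 0 of 7 SULT and 7 of 14 GST fell in transgenic livers, and 4 of 9 UGT, 1 of 7 SULT and 4 of 14 GST fell in wild-type livers. Family medians were -1.68 for UGT, 0.15 for SULT and -0.80 for GST in transgenic livers, and -0.94, -0.57 and -0.61 in wild-type livers. All 4 LPS libraries lay below all 4 untreated libraries for 7 of 9 UGT, 1 of 7 SULT (Sult2a7) and 6 of 14 GST, against 16.8% of all tested features, and above them for Sult1e1 alone, against 20.6% of all tested features. These counts rest on few libraries. Without transgenic LPS replicate 1, 9 members passed in transgenic livers (8 lower, 1 higher), without untreated transgenic replicate 1 there were 8 and without replicate 2 there were 4. In wild-type livers 3 members passed without LPS replicate 1 and 2 without LPS replicate 2.

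**Figure D1:**
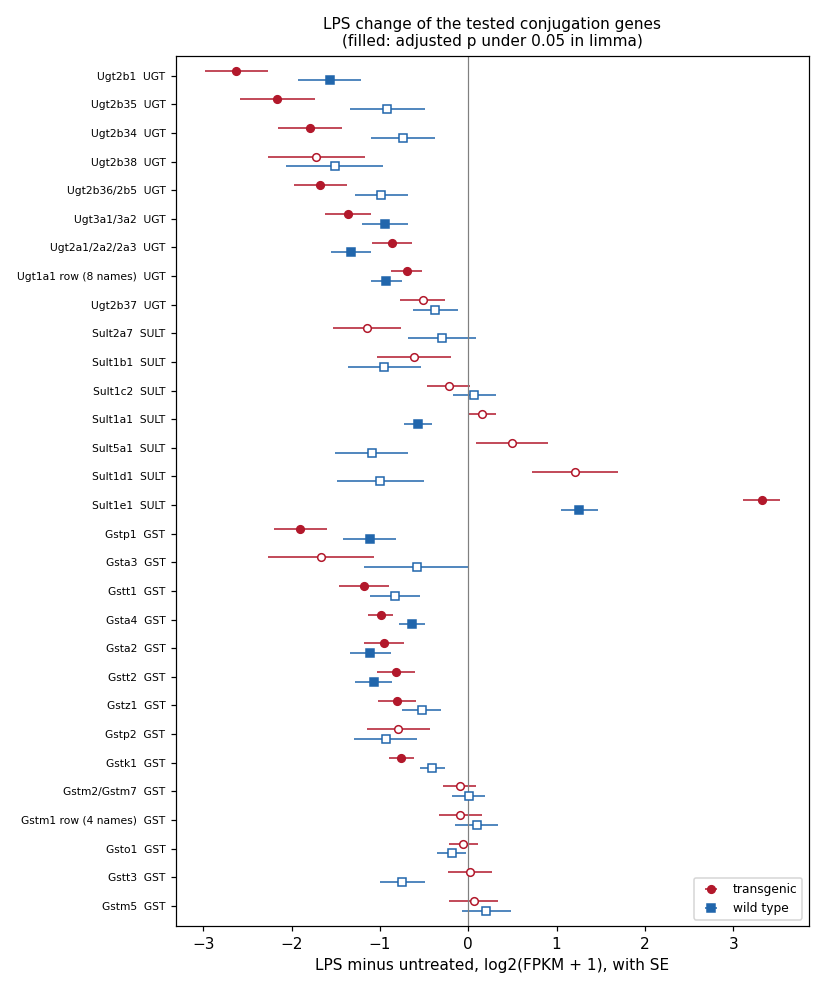
Log2 change with LPS of each tested member, from limma on log2(FPKM + 1), in transgenic and wild-type livers, by family, with lines for the standard error and filled symbols for adjusted p under 0.05. Most UGT and GST points lie below 0 in both genotypes, while Sult1e1 lies at 3.32 in transgenic and 1.26 in wild-type livers.

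Summed over a family, UGT FPKM was 767 ± 252 in transgenic LPS, 1958 ± 188 in untreated transgenic, 985 ± 45.0 in wild-type LPS and 2013 ± 298 in untreated wild-type livers (mean ± SD, n = 2 each). GST sums were 1216 ± 430, 2299 ± 140, 1568 ± 56.5 and 2312 ± 144 FPKM in the same groups. SULT sums were 578 ± 58.8 FPKM in transgenic LPS livers and 397 ± 48.9 FPKM in untreated transgenic livers, but 442 ± 34.2 FPKM in wild-type LPS livers and 753 ± 200 FPKM in untreated wild-type livers. The UGT and GST sums of both LPS groups were therefore below those of the untreated groups in every library. For SULT, both libraries of transgenic LPS livers (537 and 620 FPKM) were above both of untreated transgenic livers (362 and 431 FPKM), and both of wild-type LPS livers (418 and 466 FPKM) were below both of untreated wild-type livers (612 and 895 FPKM). A few rows carried each sum. Ugt2b36/Ugt2b5 made up 36.0% and the Ugt1a row 24.7% of UGT FPKM, Sult1a1 57.5% and Sult1d1 36.1% of SULT FPKM, and Gsta3 22.5%, Gstz1 20.0% and Gstp1 17.3% of GST FPKM, averaged over the 8 libraries.

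**Figure D2:**
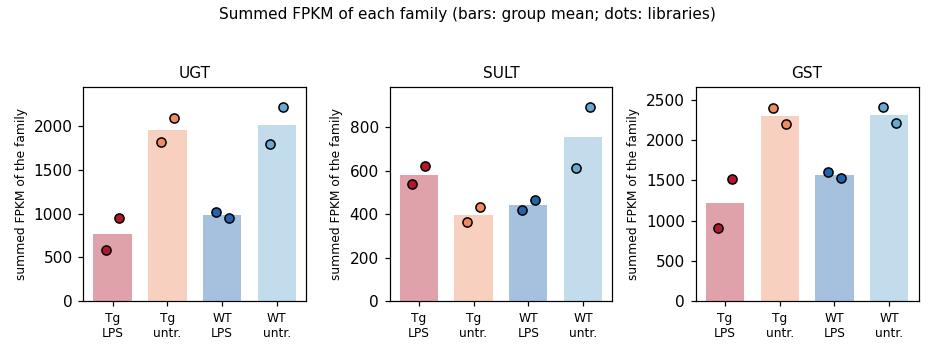
Summed FPKM of each family by library in the 4 groups, with dots for libraries and bars for the group mean. UGT and GST sums are lower in LPS livers of both genotypes, and SULT sums are higher with LPS in transgenic livers and lower in wild-type livers.

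In transgenic livers 7 of the 9 tested UGT rows fell with LPS (Ugt2b1, Ugt2b34, Ugt2b35, Ugt2b36/Ugt2b5 and the Ugt1a, Ugt2a and Ugt3a rows), and in wild-type livers 4 fell (Ugt2b1 and the same Ugt1a, Ugt2a and Ugt3a rows). Ugt2b1, a UGT2B enzyme of the family that handles steroids, bile acids and drugs (chr5:86916638-86926530), had 19.2 and 34.4 FPKM in transgenic LPS, 136 and 196 in untreated transgenic, 67.4 and 63.4 in wild-type LPS and 145 and 264 in untreated wild-type livers. No LPS value of Ugt2b1 reached an untreated one in either genotype, and the lowest values were those of transgenic LPS livers. Its log2 change was -2.62 (SE 0.36, adjusted p = 0.00197) in transgenic and -1.57 (SE 0.36, adjusted p = 0.0181) in wild-type livers. The transgenic call held in every refit that left out 1 library, and the wild-type call ended without untreated replicate 2 or either LPS replicate (adjusted p up to 0.102), and with quantile normalization (-1.31, adjusted p = 0.05).

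Ugt2b35 had 11.0 and 26.9 FPKM in transgenic LPS, 64.9 and 101 in untreated transgenic, 40.3 and 34.1 in wild-type LPS and 54.5 and 92.4 in untreated wild-type livers. It fell by 2.16 (SE 0.42, adjusted p = 0.00962) in transgenic livers, and its change in wild-type livers was -0.92 (SE 0.42, adjusted p = 0.164). Ugt2b34 had 28.3 and 71.3 FPKM in transgenic LPS, 150 and 167 in untreated transgenic, 79.2 and 87.6 in wild-type LPS and 137 and 142 in untreated wild-type livers. Both genes separated LPS from untreated libraries in both genotypes, with replicate 1 of transgenic LPS livers the lowest. Ugt2b34 fell by 1.79 (SE 0.36, adjusted p = 0.0111) in transgenic livers, against a change of -0.74 (SE 0.36, adjusted p = 0.191) in wild-type livers. Without transgenic LPS replicate 1 its transgenic change was -1.14 (adjusted p = 0.0072). Its call and that of Ugt2b35 ended without untreated transgenic replicate 2 (adjusted p = 0.0687 and 0.0682).

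Ugt2b36/Ugt2b5, the UGT row with the highest mean over the 8 libraries, whose promoters are printed above, had 177 and 340 FPKM in transgenic LPS, 735 and 843 in untreated transgenic, 351 and 325 in wild-type LPS and 605 and 742 in untreated wild-type livers. The LPS libraries were below the untreated ones throughout, and in transgenic LPS livers the mean was 259 FPKM, against 262 FPKM for the Ugt1a row. It fell by 1.68 (SE 0.30, adjusted p = 0.0066) in transgenic livers, and its change in wild-type livers, -0.99 (SE 0.30, adjusted p = 0.0536), missed the threshold. Without untreated transgenic replicate 2 the transgenic call also missed it (adjusted p = 0.052).

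The Ugt1a row, whose locus includes the bilirubin enzyme Ugt1a1, had 231 and 293 FPKM in transgenic LPS, 417 and 426 in untreated transgenic, 254 and 249 in wild-type LPS and 490 and 470 in untreated wild-type livers. It fell in both genotypes, by 0.70 (SE 0.17, adjusted p = 0.0239) in transgenic and by 0.93 (SE 0.17, adjusted p = 0.00739) in wild-type livers. The replicates of this row lay close together except in transgenic LPS livers, and LPS libraries were below untreated ones throughout. The wild-type call ended without either wild-type LPS library (adjusted p up to 0.0737), and the transgenic call without transgenic LPS replicate 1, either untreated transgenic library or either wild-type LPS library (adjusted p up to 0.139). The transgenic change was -0.45 after rescaling (adjusted p = 0.0522) and -0.45 with quantile normalization (adjusted p = 0.0568), and the call also ended with only the groups compared (adjusted p = 0.0706). Which of its 8 names carried the difference cannot be read from the table.

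The Ugt2a row had 55.9 and 68.9 FPKM in transgenic LPS, 108 and 120 in untreated transgenic, 51.7 and 47.2 in wild-type LPS and 101 and 156 in untreated wild-type livers. It fell by 0.87 (SE 0.23, adjusted p = 0.0294) in transgenic and by 1.33 (SE 0.23, adjusted p = 0.00508) in wild-type livers. In wild-type livers it was the only UGT row whose call held in every refit that left out 1 library, while its transgenic call ended without the same 5 libraries as that of the Ugt1a row (adjusted p up to 0.154), after rescaling (-0.62, adjusted p = 0.0876) and with quantile normalization (-0.57, adjusted p = 0.112). The Ugt3a row, whose human relatives use other sugar donors than UDP-glucuronic acid, had 65.8 and 108 FPKM in transgenic LPS, 210 and 228 in untreated transgenic, 171 and 146 in wild-type LPS and 268 and 349 in untreated wild-type livers. It fell by 1.36 (SE 0.26, adjusted p = 0.00837) in transgenic and by 0.94 (SE 0.26, adjusted p = 0.0373) in wild-type livers. Its transgenic call ended without untreated transgenic replicate 2 (adjusted p = 0.0612), and its wild-type call without untreated wild-type replicate 2, either wild-type LPS library or either untreated transgenic library (adjusted p up to 0.211), after rescaling, with quantile normalization and without the low-value filter (adjusted p of 0.0752, 0.101 and 0.0597).

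The remaining tested UGT members were expressed at low levels. Ugt2b38 had 0.475 and 1.55 FPKM in transgenic LPS, 3.58 and 7.92 in untreated transgenic, 0.624 and 0.532 in wild-type LPS and 1.52 and 7.01 in untreated wild-type livers, with changes of -1.72 (adjusted p = 0.0534) and -1.51 (adjusted p = 0.0905) in transgenic and wild-type livers. Ugt2b37 stayed between 0.242 and 1.25 FPKM and passed in neither genotype. Ugt8a, which adds galactose to ceramide, was at most 0.16 FPKM.

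**Figure D3:**
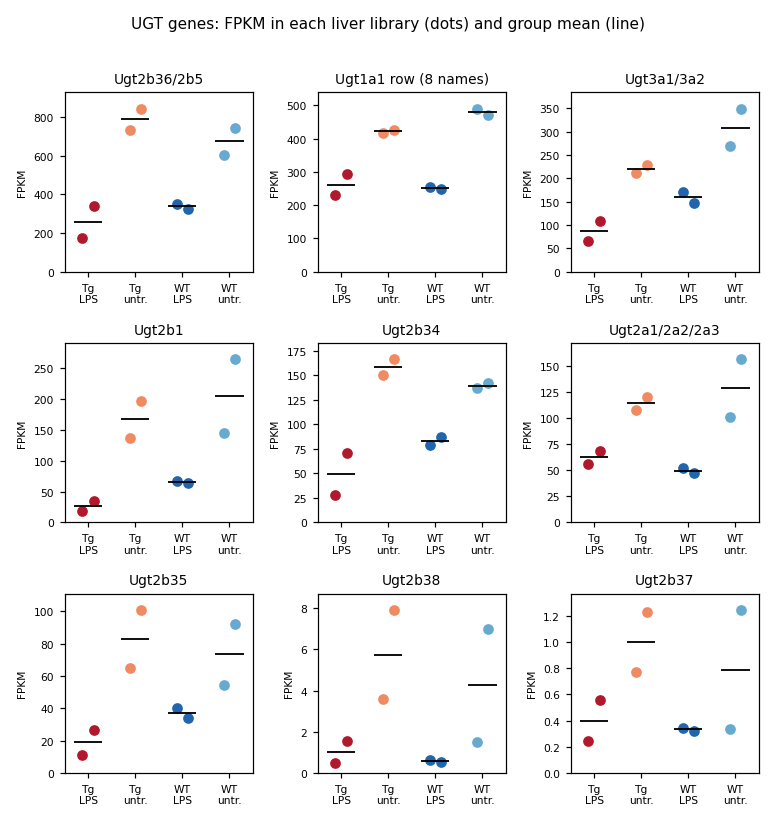
FPKM (vertical axis, from 0) of the 9 tested UGT rows in the 4 groups, with a dot for each library and a line for the group mean. Except for Ugt2b37 in wild-type livers, the LPS libraries lie below the untreated libraries of the same genotype, and for Ugt2b1 the transgenic LPS values of 19.2 and 34.4 FPKM are the lowest.

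The sulfotransferases did not move together. Sult1e1, which sulfonates estrogens and is known to be inducible by endotoxin in mouse liver (chr5:87575969-87591594), had 17.7 and 20.0 FPKM in transgenic LPS, 1.03 and 0.946 in untreated transgenic, 18.1 and 21.1 in wild-type LPS and 5.99 and 9.55 in untreated wild-type livers. The LPS values of both genotypes lay in the same narrow range, while untreated transgenic livers were lower than untreated wild-type livers. The log2 change with LPS was 3.32 (SE 0.21, adjusted p = 0.000212) in transgenic and 1.26 (SE 0.21, adjusted p = 0.00404) in wild-type livers, and both calls held in every refit that left out 1 library. The 2 LPS changes differed by 2.06 (SE 0.29), which did not pass over all features (adjusted p = 0.181). Without transgenic LPS replicate 2, which leaves 1 library in that group, this difference passed.

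Sult1a1, the phenol sulfotransferase and the SULT with the highest mean over the 8 libraries (chr7:126672865-126676432), had 292 and 298 FPKM in transgenic LPS, 264 and 267 in untreated transgenic, 263 and 290 in wild-type LPS and 435 and 388 in untreated wild-type livers. Untreated wild-type livers stood above the other 3 groups. It fell by 0.57 (SE 0.16, adjusted p = 0.0382) in wild-type livers, and its change in transgenic livers was 0.15 (SE 0.16, adjusted p = 0.519). The wild-type call ended without any of 5 libraries: untreated wild-type replicate 1, either wild-type LPS library or either untreated transgenic library (adjusted p up to 0.269). It also ended with libraries rescaled to an equal FPKM sum (-0.30, adjusted p = 0.191), with quantile normalization (-0.31, adjusted p = 0.163), with the replicate number as a block (adjusted p = 0.0532) and with only the groups compared (adjusted p = 0.0657). Sult1d1, which sulfonates catecholamines and lies next to Sult1e1, had 215 and 279 FPKM in transgenic LPS, 81.5 and 136 in untreated transgenic, 120 and 138 in wild-type LPS and 146 and 453 in untreated wild-type livers. The replicates of untreated wild-type livers were far apart, and neither change passed: 1.21 (SE 0.49, adjusted p = 0.11) in transgenic and -0.99 (SE 0.49, adjusted p = 0.19) in wild-type livers.

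Sult5a1 had 6.57 and 11.2 FPKM in transgenic LPS, 3.65 and 8.99 in untreated transgenic, 4.55 and 5.65 in wild-type LPS and 8.87 and 16.0 in untreated wild-type livers, with changes of 0.49 (adjusted p = 0.411) and -1.09 (adjusted p = 0.101) in transgenic and wild-type livers. Sult1b1, which acts on thyroid hormones, changed by -0.62 (adjusted p = 0.311) and -0.95 (adjusted p = 0.147), and neither change passed. Its libraries overlapped in transgenic livers (3.97 and 9.02 FPKM with LPS, 7.53 and 12.7 untreated). In wild-type livers they did not (7.86 and 8.46 FPKM with LPS, 11.7 and 23.7 untreated). Sult2a7, of the hydroxysteroid and bile acid sulfotransferase subfamily, had 0.256 and 2.25 FPKM in transgenic LPS, 2.87 and 4.17 in untreated transgenic, 2.61 and 2.71 in wild-type LPS and 3.42 and 3.56 in untreated wild-type livers. Its LPS libraries were the lower ones in both genotypes, and its changes of -1.15 (adjusted p = 0.0648) and -0.29 (adjusted p = 0.621) did not pass. Sult1c2 stayed between 0.507 and 1.38 FPKM and passed in neither genotype. The other Sult2a members with a value, Sult2a1, Sult2a2 and Sult2a4, were at most 0.113 FPKM in these male livers.

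**Figure D4:**
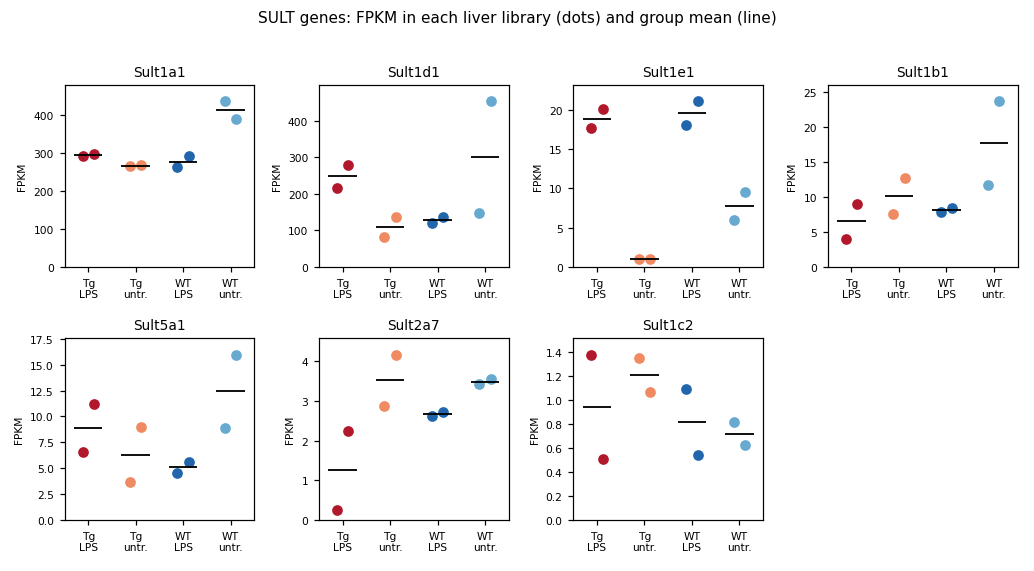
FPKM (vertical axis, from 0) of the 7 tested SULT members in the 4 groups, with a dot for each library and a line for the group mean. Sult1e1 lies between 17.7 and 21.1 FPKM in all LPS libraries and near 1 FPKM in untreated transgenic livers.

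Of the 14 tested glutathione S-transferases, Gstp1, Gsta2, Gsta4 and Gstt2 fell with LPS in both genotypes, Gstt1, Gstz1 and Gstk1 passed as lower in transgenic livers, and Gsta3, Gstp2, Gstt3, Gsto1 and the 3 mu class rows passed in neither. Gstp1, the pi class enzyme (chr19:4035407-4037985), had 101 and 176 FPKM in transgenic LPS, 481 and 523 in untreated transgenic, 211 and 186 in wild-type LPS and 348 and 534 in untreated wild-type livers. LPS and untreated libraries did not overlap. It fell by 1.90 (SE 0.30, adjusted p = 0.00383) in transgenic livers, which held in every refit, and by 1.12 (SE 0.30, adjusted p = 0.0349) in wild-type livers, which ended without 5 of the 8 libraries: untreated wild-type replicate 2, either wild-type LPS library or either untreated transgenic library (adjusted p up to 0.185). The wild-type call of Gstp1 also ended after rescaling, with quantile normalization and without the low-value filter (adjusted p of 0.0636, 0.079 and 0.0615).

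Gsta4, which conjugates the lipid peroxidation product 4-hydroxynonenal, had 7.89 and 9.62 FPKM in transgenic LPS, 18.7 and 17.9 in untreated transgenic, 12.6 and 13.4 in wild-type LPS and 21.9 and 19.7 in untreated wild-type livers. Its replicates were close and its groups separate. The change was -0.99 (SE 0.15, adjusted p = 0.00272) in transgenic and -0.64 (SE 0.15, adjusted p = 0.0177) in wild-type livers. Gsta2, another alpha class gene (chr9:78331018-78355788), had 1.14 and 2.39 FPKM in transgenic LPS, 3.70 and 4.79 in untreated transgenic, 5.67 and 5.27 in wild-type LPS and 14.2 and 11.9 in untreated wild-type livers. It fell with LPS by 0.95 (SE 0.23, adjusted p = 0.0213) in transgenic and by 1.11 (SE 0.23, adjusted p = 0.0121) in wild-type livers. Without either wild-type LPS library the wild-type calls of Gsta4 and Gsta2 ended (adjusted p up to 0.15 and 0.0826), and that of Gsta4 also when libraries were rescaled (-0.38, adjusted p = 0.0731). The transgenic call of Gsta2 ended without transgenic LPS replicate 1 or either untreated transgenic library (adjusted p up to 0.13) and with only the groups compared (adjusted p = 0.0526), with a change of -0.62 without that LPS library, and that of Gsta4 held in every refit.

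Gstt1, of the theta class, had 45.1 and 62.5 FPKM in transgenic LPS, 137 and 108 in untreated transgenic, 89.9 and 76.3 in wild-type LPS and 192 and 114 in untreated wild-type livers. Gstt2 had 39.5 and 37.9 FPKM in transgenic LPS, 67.6 and 70.3 in untreated transgenic, 40.2 and 33.7 in wild-type LPS and 96.8 and 63.5 in untreated wild-type livers. Both theta genes were lower with LPS in every library. Gstt1 fell by 1.18 (SE 0.28, adjusted p = 0.0207) in transgenic livers, with -0.83 (adjusted p = 0.0772) in wild-type livers, and Gstt2 fell by 0.82 (SE 0.21, adjusted p = 0.0277) in transgenic and 1.07 (SE 0.21, adjusted p = 0.0097) in wild-type livers. The call of Gstt1 ended without transgenic LPS replicate 1 or either untreated transgenic library, that of Gstt2 in wild-type livers without wild-type LPS replicate 2, and that of Gstt2 in transgenic livers without any of the 4 transgenic or 2 wild-type LPS libraries (adjusted p up to 0.12, 0.0907 and 0.135). The transgenic call of Gstt2 also ended after rescaling (adjusted p = 0.0681) and with quantile normalization (adjusted p = 0.0575). Gstt3, the third theta gene, differed little in transgenic livers (31.5 and 50.2 FPKM with LPS, 45.6 and 33.9 untreated). In wild-type livers it had 37.3 and 33.7 FPKM with LPS and 66.6 and 54.2 untreated, a change of -0.75 (adjusted p = 0.0736). Gstt3 passed in neither genotype.

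Gstz1, the maleylacetoacetate isomerase of tyrosine breakdown, had 195 and 296 FPKM in transgenic LPS, 416 and 425 in untreated transgenic, 327 and 339 in wild-type LPS and 459 and 502 in untreated wild-type livers. Gstk1, the kappa class enzyme of mitochondria and peroxisomes, had 66.3 and 65.7 FPKM in transgenic LPS, 117 and 107 in untreated transgenic, 101 and 92.9 in wild-type LPS and 130 and 128 in untreated wild-type livers. Both were lower with LPS in all libraries and passed in transgenic livers, Gstz1 by -0.80 (SE 0.22, adjusted p = 0.0314) and Gstk1 by -0.76 (SE 0.14, adjusted p = 0.00817). In wild-type livers their changes were -0.53 (adjusted p = 0.126) and -0.41 (adjusted p = 0.0821). The call of Gstk1 ended without either untreated transgenic library (adjusted p up to 0.0759), and that of Gstz1 without these, transgenic LPS replicate 1 or either wild-type LPS library (adjusted p up to 0.148). Without transgenic LPS replicate 1 the change of Gstz1 was -0.51, and its call also ended after rescaling, with quantile normalization, without the low-value filter and with only the groups compared (adjusted p of 0.0581, 0.0729, 0.0507 and 0.0793). The change of Gstk1 was -0.45 with quantile normalization (adjusted p = 0.0483).

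Gsta3, the GST with the highest mean over the 8 libraries, passed in neither genotype and had transgenic LPS replicates far apart, at 91.1 and 403 FPKM, against 676 and 554 in untreated transgenic, 308 and 325 in wild-type LPS and 594 and 380 in untreated wild-type livers. In wild-type LPS livers Gsta3 averaged 316 FPKM and Gstz1 333 FPKM. The changes of Gsta3 were -1.67 (SE 0.60, adjusted p = 0.077) and -0.58 (SE 0.60, adjusted p = 0.518) in transgenic and wild-type livers. The Gstm1 row had 184 and 273 FPKM in transgenic LPS, 268 and 213 in untreated transgenic, 308 and 271 in wild-type LPS and 309 and 237 in untreated wild-type livers. Its groups overlapped, and as deposited the mu class rows changed by at most 0.20 in size in either genotype. With libraries rescaled to an equal FPKM sum, their changes were all positive. They ran from 0.14 (Gstm2/Gstm7 in transgenic livers) to 0.44 (Gstm5 in wild-type livers). The sign of the Gstm1 row and Gstm2/Gstm7 in transgenic livers thus turned under another scaling. Names joined in a row cannot be read apart. Gsto1, a thiol transferase, stayed between 99.9 and 129 FPKM in all libraries. Gstp2 changed by -0.79 (adjusted p = 0.143) in transgenic and -0.93 (adjusted p = 0.107) in wild-type livers.

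**Figure D5:**
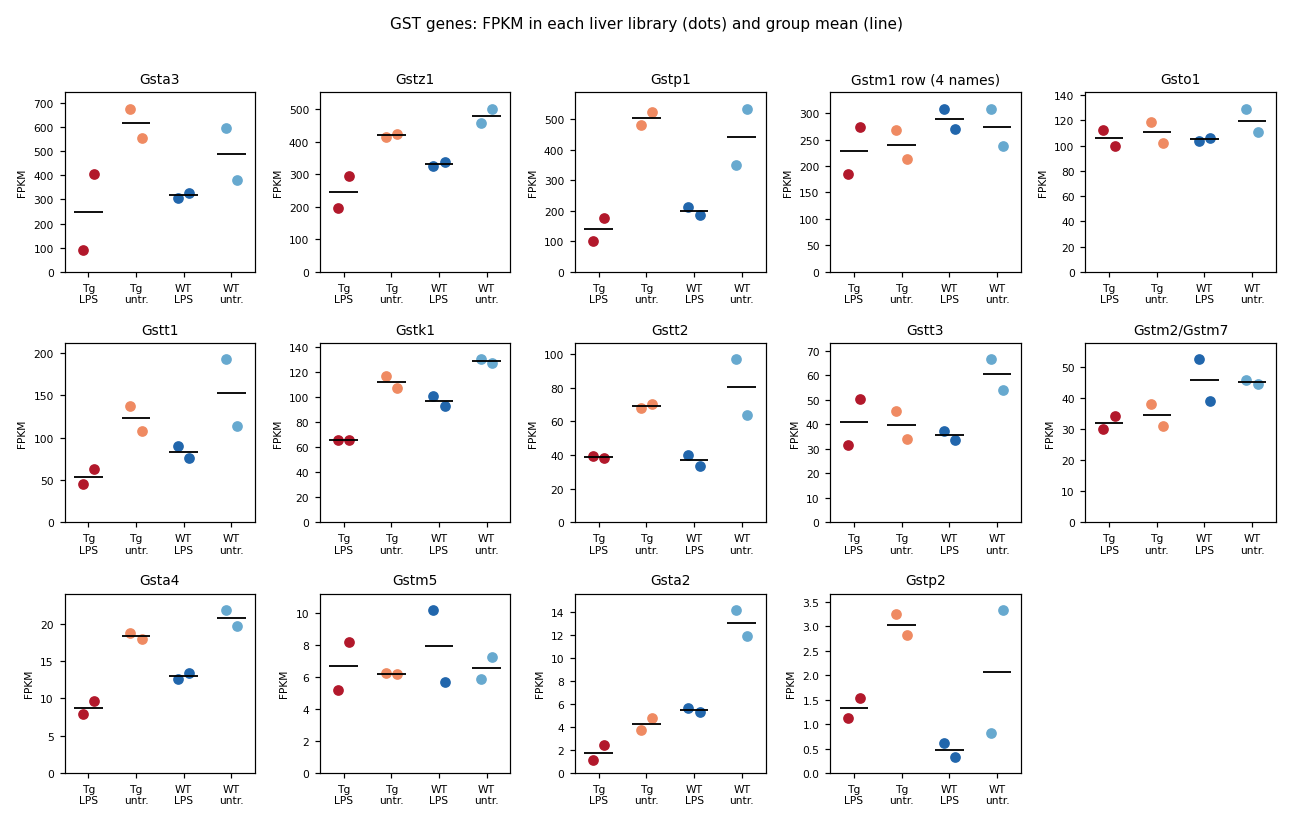
FPKM (vertical axis, from 0) of the 14 tested GST members in the 4 groups, with a dot for each library and a line for the group mean. Gstp1, Gsta4, Gstt1, Gstt2, Gstz1 and Gstk1 are lower in every LPS library, the Gstm1 row overlaps between groups, and Gsta3 spans 91.1 to 403 FPKM within transgenic LPS livers.

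Fewer members passed between genotypes than between treatments. Among untreated livers, 1 of the 30 members differed between genotypes, against 0.0611% of all features: Sult1e1 was lower in transgenic livers by 2.11 (SE 0.21, adjusted p = 0.0241). This call ended without either untreated transgenic library or either wild-type LPS library (log2 difference of -2.14 to -2.08), and in a fit of only the groups compared (adjusted p = 0.0696). Under LPS no member passed, against 0% of all features, with 8 members at an unadjusted p under 0.05, against 12.2% of all features, and Sult1e1 differed by -0.05 (adjusted p = 0.942). Without transgenic LPS replicate 2, Gsta2, Gsta3, Sult2a7, Ugt2b34 and the Ugt3a row passed there, with replicate 1 as the only library of that group. The share of all features passing in that refit is not given, so these calls are not read as particular to the members. Averaged over both treatments, 1 member passed, against 0.14% of all features: Gsta2 was lower in transgenic livers by 1.34 (SE 0.16, adjusted p = 0.0428), its transgenic values lying below its wild-type values within each treatment. Leaving out any of 6 libraries, all but those of transgenic LPS livers, ended this call, with differences of -1.42 to -1.27.

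Whether the LPS change itself depended on the genotype was tested by the interaction. No member passed, against 0.00872% of all features, and 4 of the 30 members had an unadjusted p under 0.05, against 10.4% of all features: Sult1e1 (2.06), Sult1d1 (2.202), Sult5a1 (1.59) and Sult1a1 (0.72), with adjusted p between 0.181 and 0.438. Without transgenic LPS replicate 2, Gsta3, Sult1e1, Sult2a7 and Ugt2b34 passed, with replicate 1 as the only library of that group. The share of all features passing in that refit is not given, so these calls are not read as particular to the members. The larger count of lower members in transgenic livers is therefore not shown to be a difference between genotypes.

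The counts for related gene lists are to be read against all features, of which 10.5% fell and 16% rose in transgenic livers and 5.41% fell and 16.2% rose in wild-type livers. Of 5 tested genes listed with UDP-glucuronic acid supply (Ugp2, Ugdh, Slc35d1, Slc35b1 and Slc35a3), 3 fell in transgenic and 2 in wild-type livers. Ugdh, which makes UDP-glucuronic acid, fell by 1.56 (adjusted p = 0.00594) in transgenic and 1.01 (adjusted p = 0.0346) in wild-type livers. Slc35b1 also fell in both genotypes, but Slc35b1 and Slc35a3 are not established carriers of UDP-glucuronic acid. Of 7 genes of PAPS supply and sulfate transport, 1 fell in transgenic livers, and 1 rose and 2 fell in wild-type livers: Bpnt1, which clears the by-product of sulfonation, fell in both, while the PAPS synthase Papss2 fell by 0.67 (adjusted p = 0.0431) in wild-type livers and changed by 0.04 in transgenic livers. Of 11 glutathione genes, 2 rose and 4 fell in transgenic livers and 2 rose and 1 fell in wild-type livers. Gclc, the catalytic subunit of the rate-limiting glutamate-cysteine ligase, fell by 2.08 (adjusted p = 0.00143) in transgenic livers and changed by -0.53 in wild-type livers, where it did not pass. Its modifier subunit Gclm fell by 0.81 (adjusted p = 0.0362) in transgenic livers, and Cndp2, a dipeptidase of glutathione breakdown, rose in both genotypes.

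Other parts of the detoxifying system were mixed. Of 21 tested genes from a list of other conjugation and detoxifying enzymes, 1 rose and 12 fell in transgenic livers and 5 fell in wild-type livers. That list includes the epoxide hydrolases Ephx1 and Ephx2 and the quinone reductases Nqo1 and Nqo2, which do not conjugate. Nqo1 is also in the NRF2 list below, as are Gclc and Gclm of the glutathione genes. Inmt, an indole N-methyltransferase, fell by 2.66 (adjusted p = 0.0267) and Mgst1, the microsomal glutathione transferase, by 1.17 (adjusted p = 0.0255) in transgenic livers, and Nnmt, the nicotinamide N-methyltransferase, rose by 1.28 (adjusted p = 0.0356). Of 6 enzymes that hydrolyse conjugates, 2 rose and 1 fell in transgenic livers and 2 rose in wild-type livers; beta-glucuronidase, Gusb, rose by 0.91 (adjusted p = 0.00576) and 0.84 (adjusted p = 0.00754). Of 7 tested genes listed with transport of conjugates (Abcc1, Abcc3, Abcc4, Abcc6, Abcg2, Rdx and Slc10a6), 3 rose and 2 fell in transgenic livers. In wild-type livers 2 of them rose, and Abcc1 and Abcc4 were higher in both genotypes. Rdx and Slc10a6 are not efflux transporters. Abcc2, Abcb1a and Abcb1b share rows with other genes and were not counted. Of 12 NRF2 targets outside the 3 families, 3 rose and 6 fell in transgenic livers and 3 rose and 2 fell in wild-type livers: Hmox1, the heme oxygenase, rose by 3.37 and 3.13, and Osgin1 fell by 2.66 (adjusted p = 0.0113) in transgenic livers. Among 23 transcription factors of these genes, 1 rose and 4 fell in transgenic livers and 2 fell in wild-type livers. Hnf4a fell by 0.96 (adjusted p = 0.0157) in wild-type livers and changed by -0.21 in transgenic livers, whereas Ppara fell by 1.05 (adjusted p = 0.0132), Cebpa fell by 1.46 (adjusted p = 0.0361) and Cux2, known as a female-enriched regulator of liver genes, rose by 2.60 (adjusted p = 0.00483) in transgenic livers. The NRF2 gene Nfe2l2 changed by 0.17 and 0.25 and the PXR gene Nr1i2 by -0.28 and -0.34 in transgenic and wild-type livers, none of which passed.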

How the data were processed

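Per the labels' protocols, RNA was extracted from flash-frozen, pulverised liver and sequenced from stranded mRNA libraries. The authors deposited FPKM values per gene name in 1 table of 24545 rows for 8 libraries, of which 6197 rows were 0 throughout. TopHat2 2.1.0, Bowtie2 2.2.6, Cufflinks, Cuffdiff 2.2.1 and the mm10 build are named in the submitters' processing notes, and no gene annotation is named there. The table holds no counts, so sequencing depth is unknown and intervals for counting error could not be given. How the reads of shared exons and near-identical genes were divided is not stated, which makes the Ugt2b, Gstm and Sult2a members uncertain.

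All columns matched a sample's labels, with 0 unmatched. The highest row per name was kept and rows of identical values were joined. Features reaching 1 FPKM in 2 or more of 8 libraries were tested with limma 3.58.1 in R 4.3.3 on log2(FPKM + 1), with 1 mean for each of 4 groups, 4 residual degrees of freedom, empirical Bayes moderation with a trend, 2-sided tests and Benjamini-Hochberg adjustment over all tested features. A member passed at an adjusted p under 0.05. A log2 change is on the log2(FPKM + 1) scale, which understates the change of low genes, and standard errors come from the moderated fit. The code was tested on simulated data. Replicates are biological per the labels.

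The members and lists were chosen with earlier results of these data known. Members given with a value in each library were, per family, up to 8 with the largest change among those that passed with both libraries of 1 group above both of the other, and the 3 with the highest mean. Of the lists, passing genes were named by the largest change, and other members were named after their values were seen. A total of 17 other settings were tried. Gene positions are from GENCODE vM21 (GRCm38) and promoters from RefSeq (GRCm38.p6).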

Additional observations from a re-analysis of the deposited data

Results flagged for a closer look

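Sult1a1 and Sult1d1 were flagged because their LPS libraries lay on opposite sides of the untreated libraries in the genotypes. For Sult1a1, both LPS libraries were above both untreated libraries in transgenic livers and below them in wild-type livers, and the LPS change in transgenic minus that in wild-type livers was 0.721 on the log2 scale (SE 0.223, adjusted p = 0.418). For Sult1d1 the same difference was 2.202 (SE 0.695, adjusted p = 0.418), with the same pattern of libraries. Neither difference passed the limma interaction test over all features. Separation within a genotype was common among the 11463 tested features. Both LPS libraries lay above both untreated ones for 3640 features in transgenic livers, and below them for 3897 in wild-type livers. The share showing both together is not given. The Sult1a1 change in transgenic livers was only 0.15 (limma, adjusted p = 0.519).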

How the results depend on the processing

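In transgenic livers, rescaling libraries to an equal FPKM sum gave 11 members with LPS (10 lower, 1 higher) in place of 15. Among all features, rescaling gave 3050 calls in transgenic livers, 81.2% of them higher, and 2731 in wild-type livers, 95.5% of them higher. In wild-type livers 10 members passed with LPS. This became 6 (5 lower, 1 higher) with libraries rescaled to an equal FPKM sum, 13 with the replicate block, and 2 to 14 when 1 library was left out. In transgenic livers 15 passed, 18 with the replicate block and 4 to 18 with 1 library left out. The untreated genotype comparison (1 member) gave 0 without the low-value filter and 0 with only the groups compared, and 0 to 2 with 1 library left out. That under LPS (0 members) gave 0 to 5, the genotype average (1 member) 0 without the filter, 0 with the replicate block and 0 to 4, and the interaction (0 members) 0 to 4. With a pseudocount of 0.1 the average passed Sult1e1 in place of Gsta2. Where a cause is not plain from fewer samples or features, it was not tested. For the replicate block, the refits with a library left out and the other refits named in this paragraph, the share of all features passing is not given.

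Calls kept under every alternative were those of Sult1e1 and the Ugt2a row in wild-type livers and of Sult1e1, Ugt2b1, Gstp1 and Gsta4 in transgenic livers.

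Rescaling moved the median of all features to 0.17 in transgenic and 0.18 in wild-type livers, against -0.04 and -0.05 as deposited. Relative to it, the members' median was -0.74 and -0.70 after rescaling, -0.55 and -0.51 with quantile normalization, and -0.76 and -0.74 as deposited. The share of all calls that were higher was 60.4% in transgenic and 75% in wild-type livers as deposited, 81.2% and 95.5% rescaled, and 53.8% and 59.5% with quantile normalization. The log2 difference of the UGT sum with LPS was -1.39 in transgenic and -1.02 in wild-type livers as deposited. After rescaling it was -1.14 and -0.75. For GST the same differences were -0.96 and -0.56 as deposited, and -0.71 and -0.29 rescaled. For SULT they were 0.55 and -0.75 as deposited, and 0.80 and -0.47 rescaled. Scaling turned the sign of the Gstm1 row, Gstm2/Gstm7 and Gsto1 in transgenic livers and of Gsto1 and Sult1c2 in wild-type livers, none of which passed.

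The labels do not say that replicate numbers pair the samples, and 2 numbers are too few to show it: the correlation of same-numbered deviations was 0.0434 to 0.459 over the 6 pairs of groups. Beside the counts above, the replicate block ended the wild-type call of Sult1a1 and the averaged genotype call of Gsta2, and the block gave 1 member for the untreated genotype comparison, 0 under LPS and 0 for the interaction. Unknown depth leaves members near 1 FPKM, such as Ugt2b37 and Sult1c2, without an error from counting.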
